A study of Mus musculus with 6 samples.

Results

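The endoplasmic reticulum (ER) folds the proteins that a cell secretes or places in its membranes, and 39 genes of that machinery are described here. They comprise its chaperones, its translocon and the unfolded protein response, and they were chosen as named genes out of the 36842 of the deposited table. All 39 were in the table, and 38 reached a mean of 1 FPKM over the 6 libraries, where 12241 genes did. FPKM divides fragments by transcript length and by the depth of the library, so it is a level per length, and values of different genes can be set side by side. Of the 39, 36 are general genes of secretory cells. The other 3, Clgn, Calr3 and Pdilt, are spermatid forms, germ cell relatives of calnexin, calreticulin and protein disulfide isomerase.

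A protein that enters the ER passes the Sec61 channel, loses its signal peptide, gains sugars and disulfide bonds, and is folded by BiP and by the lectins calnexin and calreticulin. When unfolded protein builds up, the sensors ATF6, IRE1 and PERK set off the unfolded protein response, which raises chaperones and the degradation of misfolded protein. In spermatids, calmegin, calsperin and PDILT fold sperm surface proteins of the ADAM family that are needed for fertilisation in mice.

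RNA was sequenced from mouse libraries labelled GC-2spd(ts), an immortalised spermatocyte line with a temperature-sensitive p53, of wild-type genotype and with testis as the source. In the 3 Sal_CP libraries the cells had received 100 µM salidroside, a glycoside of Rhodiola, together with 2 mM cyclophosphamide, an alkylating drug, for 24 h. In the 3 CP libraries they had received 2 mM cyclophosphamide alone for 24 h. Both groups carry the drug, and no untreated cells are analysed here. The labels name 1 line for all libraries and do not say whether replicates are separate cultures, so p-values here gauge the spread among these samples alone, and that spread may be technical. The comparison asks what salidroside added to cyclophosphamide.

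The markers did not go with RNA of a spermatocyte line alone, so the label may not describe the RNA. Late spermatid genes were abundant, with 0 of 17 markers under 1 FPKM in all libraries and Prm2, a protamine, at 7316 to 21422 FPKM. Of 17 spermatocyte markers, 7 lay under 1 FPKM in every library, among them the meiotic recombinase Dmc1 at 0.0345 to 0.299 FPKM. The synaptonemal genes differed widely, with Syce2 at 210.1 to 513 and Syce1 at 22.1 to 56.7 FPKM. Sycp1, Sycp2 and Sycp3 lay only at 0.318 to 1.68, 0.513 to 1.75 and 1.39 to 3.75 FPKM. Epididymal and epithelial markers were present too, with 6 of 17 and 0 of 16 under 1 FPKM in all libraries, whereas 7 of 12 Sertoli and 6 of 10 Leydig markers were. Crisp1, secreted by the epididymis, lay at 1423 to 3521 FPKM. Of 15 leukocyte markers 4 were under 1 FPKM in all libraries, while Lyz2, a myeloid lysozyme, lay at 89.8 to 562 FPKM. Mitochondrially encoded transcripts made up 29.0 to 38.1% of summed FPKM in Sal_CP libraries and 36.6 to 50.4% in CP libraries. In bulk RNA, fewer cells of a type and less RNA per cell cannot be told apart.

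Genes that the unfolded protein response raises often carry an ER stress response element (ERSE) in their promoters, CCAAT and CCACG separated by 9 bases, which ATF6 and XBP1 are known to bind with NF-Y. Promoter windows from RefSeq (GRCm38.p6), 250 bases before to 50 after the start, were at hand for 31 of the 39 members. On either strand, 9 of the 31 (29.0%) held an ERSE, against 37 of the 27025 genes with a window in the table (0.137%), and 0.119% of all 32851 windows of the same length. The members were chosen as genes of the ER and of this response, so these shares describe them and are no test. The genes with an ERSE are lumenal and lectin chaperones, a disulfide isomerase, a secreted protein and degradation genes. No sensor, translocon or signal peptidase gene or spermatid form with a window held one. Clgn and Sec61a1 were among the 8 members without a window, so they were not scanned. The 10 sites are shown because they are the motif matches by which members differ, with capitals on the fixed letters and each read in the direction of the motif.
Calr: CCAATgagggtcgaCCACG
Canx: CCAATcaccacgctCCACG
Creld2: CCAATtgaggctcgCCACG
Derl3: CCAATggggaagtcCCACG
Dnajc3: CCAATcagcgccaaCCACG
Hsp90b1, distal site: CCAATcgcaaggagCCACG
Hsp90b1, proximal site: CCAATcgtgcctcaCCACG
Hspa5: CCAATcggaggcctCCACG
Pdia6: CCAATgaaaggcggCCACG
Syvn1: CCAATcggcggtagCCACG
The site nearest the start was that of Syvn1, which ended 25 bases before it, and that of Hspa5 ended 46 bases before it, whereas Hsp90b1 had sites that ended 193 and 88 bases before. The shorter ERSE-II, ATTGG and CCACG separated by 1 base, was held by 2 of 31 (Herpud1 and Dnajb11), against 0.0444% of the genes with a window. The element TGACGTGG (UPRE) was held by 1, Sec24d, against 0.714% of those genes. The cyclic AMP response element TGACGTCA, which shares TGACG with it, was held by 0 of 31, against 2.03%. No member's window held more than 1 kind. A match is only a match of letters, and no match says only that these letters are not in the window.

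The windows of 5 members are shown in full because they span the contrasts described here: Hspa5, whose response is the classical readout of ER stress, Creld2 and Herpud1, general genes with a motif but with a change above 0, and the spermatid forms Pdilt and Calr3. Capitals mark the ERSE or ERSE-II, read on the gene's strand, so that the Creld2 site appears as its reverse complement. Hspa5 lies at chr2:34771840-34772139 (plus strand), Creld2 at chr15:88819396-88819695 (plus) and Herpud1 at chr8:94386179-94386478 (plus). Pdilt lies at chr7:119523433-119523732 (minus) and the upstream one of the Calr3 starts at chr8:72443729-72444028 (minus). Neither Pdilt nor Calr3 held any of the 4 motifs in its windows.
Hspa5: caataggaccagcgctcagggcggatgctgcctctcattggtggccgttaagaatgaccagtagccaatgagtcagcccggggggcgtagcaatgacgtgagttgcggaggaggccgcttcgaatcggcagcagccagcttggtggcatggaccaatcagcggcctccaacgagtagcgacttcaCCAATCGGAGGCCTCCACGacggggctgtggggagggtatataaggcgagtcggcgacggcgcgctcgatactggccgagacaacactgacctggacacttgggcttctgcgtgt
Creld2: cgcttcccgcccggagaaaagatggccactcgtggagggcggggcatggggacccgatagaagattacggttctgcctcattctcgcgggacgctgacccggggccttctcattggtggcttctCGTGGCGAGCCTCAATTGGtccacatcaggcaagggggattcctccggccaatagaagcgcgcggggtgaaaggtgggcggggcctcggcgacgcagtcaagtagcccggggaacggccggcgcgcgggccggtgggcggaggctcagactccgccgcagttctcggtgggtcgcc
Herpud1: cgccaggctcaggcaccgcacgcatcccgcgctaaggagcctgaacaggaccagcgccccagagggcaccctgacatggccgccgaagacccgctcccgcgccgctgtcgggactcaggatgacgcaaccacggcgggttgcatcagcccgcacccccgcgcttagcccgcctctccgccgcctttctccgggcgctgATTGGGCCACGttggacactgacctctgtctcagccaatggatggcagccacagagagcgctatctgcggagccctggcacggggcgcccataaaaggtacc
Pdilt: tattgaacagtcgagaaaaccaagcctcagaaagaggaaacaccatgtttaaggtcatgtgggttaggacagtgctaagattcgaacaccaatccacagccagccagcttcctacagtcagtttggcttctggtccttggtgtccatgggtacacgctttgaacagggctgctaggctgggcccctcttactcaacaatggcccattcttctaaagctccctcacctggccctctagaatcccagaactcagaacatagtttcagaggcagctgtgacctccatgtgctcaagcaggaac
Calr3: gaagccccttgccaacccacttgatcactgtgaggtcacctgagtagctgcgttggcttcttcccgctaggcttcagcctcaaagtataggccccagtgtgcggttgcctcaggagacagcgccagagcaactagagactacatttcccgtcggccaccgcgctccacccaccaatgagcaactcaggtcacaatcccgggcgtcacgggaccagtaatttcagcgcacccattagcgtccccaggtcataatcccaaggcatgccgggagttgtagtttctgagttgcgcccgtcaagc

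General ER genes were mostly lower in Sal_CP and the 3 spermatid forms higher, but no member passed the test. Among the 35 general members tested, 32 had log2 changes below 0 and the median change was -0.45. Among all genes tested, 60.5% were below 0 and the median was -0.12. Log2 changes here are Sal_CP minus CP on log2(FPKM + 1), which understates the change of low genes. All 3 spermatid forms had a log2 change above 0, with a median of 0.70. limma called 0 of 38 members at an adjusted p below 0.05, in a comparison that called 0.0735% of genes lower and 0.0% higher, and members' adjusted p ran upward of 0.425. In the authors' deposited table, 0 of 39 members had a q below 0.05, where 0.605% of genes did, and the lowest q of a member was 0.335.

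At an unadjusted p below 0.05 in limma, 5 of 35 general members were lower (all genes: 6.77%) and 0 higher (all genes: 3.96%). The 5 were Xbp1, Sec61b, Ssr2, Pdia6 and P4hb. All Sal_CP libraries lay below all CP libraries in 13 of 35 general members (all genes: 10.0%) and above in 0 (all genes: 7.21%). Of the spermatid forms, 2 of 3, Clgn and Pdilt, had an unadjusted p below 0.05, and the groups did not overlap in 1, Clgn. The members were chosen with results of these data known, so these shares describe them and are no test of the module.

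**Figure D1:**
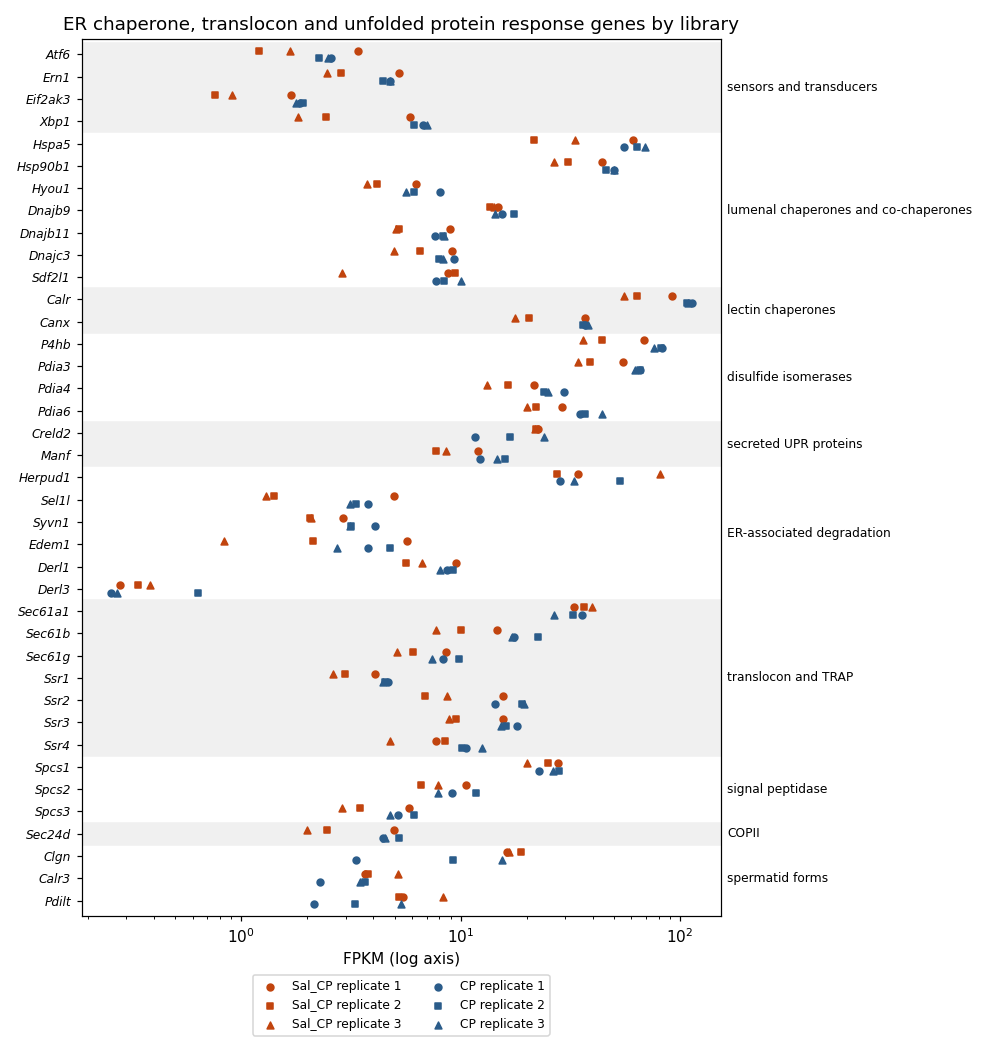
FPKM of the 39 members (log axis) in each library, with Sal_CP in orange and CP in blue, the marker shape giving the replicate number, and rows grouped by role. In 29 of 35 tested general genes Sal_CP replicates 2 and 3 both lie left of all CP libraries (all genes: 46.7%). Sal_CP replicate 1 does so in 13 (all genes: 14.0%). In the 3 spermatid forms at the bottom Sal_CP lies mostly to the right.

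The general genes were lowest in Sal_CP replicates 2 and 3. The mean log2(FPKM + 1) of the 35 general members was 3.83, 3.28 and 3.18 in Sal_CP replicates 1, 2 and 3, against 3.83, 3.90 and 3.83 in CP replicates 1, 2 and 3. Sal_CP replicate 1 thus stood level with the lowest CP library, and the other Sal_CP libraries well under all of them. Replicate 1 was the highest Sal_CP library in 31 of 35 general members, a share that was not counted over all genes. Replicate 2 lay below every CP library in 31, replicate 3 in 31, and both in 29, whereas replicate 1 did in 13 and lay above every CP library in 6. Across all genes tested, replicate 2 lay below every CP library in 54.2%, replicate 3 in 55.2%, and both in 46.7%. Replicate 1 lay below every CP library in 14.0% of all genes and above every one in 42.3%. Over all genes tested the mean log2(FPKM + 1) was 2.73, 2.37 and 2.39 in Sal_CP, against 2.57, 2.63 and 2.51 in CP. Sal_CP replicate 1 was thus the highest of all libraries there, and Sal_CP replicates 2 and 3 the lowest. How far this shift sets the levels of the general members was not tested.

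The CP libraries agreed closely in the general members. They did not in the spermatid forms, whose mean log2(FPKM + 1) had an SD of 0.168 in Sal_CP and 0.575 in CP. The SD of log2(FPKM + 1) within a group had a median of 0.384 in Sal_CP and 0.145 in CP over the general members, and 0.353 in Sal_CP and 0.220 in CP over all genes tested. It was larger in Sal_CP in 32 of the 35, as in 67.1% of all genes tested. The summed FPKM of the general members was 713, 492 and 507 in Sal_CP, against 757, 799 and 772 in CP, or 571 ± 123 and 776 ± 21.7 (SD, n = 3 each). Without Sal_CP replicate 1, the median change of the general members was -0.64 and that of all genes -0.30. Without Sal_CP replicate 3 these medians were -0.31 and -0.04, and the difference in the mean level was -0.30, against -0.43 with all libraries.

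The sensors and the transcription factor Xbp1 lay at lower levels than the abundant chaperones. Xbp1, whose messenger is spliced by IRE1 to yield an activator of ER genes, had 5.86, 2.44 and 1.81 FPKM in Sal_CP and 6.76, 6.16 and 7.05 FPKM in CP. All Sal_CP libraries lay below all CP libraries, replicate 1 only just. Its log2 change of -0.92 (SE 0.33) had the smallest p of any general member, but the adjusted p was 0.425 in limma. A level per gene does not separate spliced from unspliced Xbp1.

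Eif2ak3, the kinase PERK that slows translation, had 1.68, 0.756 and 0.906 FPKM in Sal_CP and 1.85, 1.91 and 1.79 FPKM in CP. The groups did not overlap, and the log2 change was -0.45 (SE 0.24, adjusted p 0.474 in limma). Ern1, which encodes IRE1, had 5.22, 2.84 and 2.46 FPKM in Sal_CP and 4.79, 4.42 and 4.75 FPKM in CP. Replicate 1 of Sal_CP was the highest of the 6 and the other Sal_CP libraries the lowest, with a log2 change of -0.37 (SE 0.28, adjusted p 0.543 in limma), which was -0.63 without Sal_CP replicate 1 and -0.21 without replicate 3. Atf6, the sensor cut in the Golgi to release a transcription factor, had 3.41, 1.20 and 1.67 FPKM in Sal_CP and 2.58, 2.26 and 2.48 FPKM in CP. It showed the same split among Sal_CP libraries, and the log2 change was -0.22 (SE 0.28, adjusted p 0.683 in limma). Single Sal_CP libraries set that value, which was -0.50 without replicate 1, -0.0027 without replicate 2 and -0.14 without replicate 3.

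All 7 lumenal chaperones and co-chaperones had a change below 0, with a median of -0.40. Hspa5, the chaperone BiP that also holds the sensors inactive, had 60.8, 21.7 and 33.1 FPKM in Sal_CP and 55.9, 63.7 and 69.4 FPKM in CP. Sal_CP replicate 1 lay among the CP libraries and the other Sal_CP libraries far below them, and the log2 change of -0.81 (SE 0.38) had an adjusted p of 0.464 in limma, and was -0.47 without Sal_CP replicate 2. Hsp90b1, the ER paralog of HSP90, had 44.3, 30.9 and 26.6 FPKM in Sal_CP and 49.8, 46.2 and 49.9 FPKM in CP. All Sal_CP libraries lay below all CP libraries, and the log2 change was -0.54 (SE 0.31, adjusted p 0.492 in limma). It shares exon sequence on its own strand with Gm25745, which had 60.5, 33.2 and 34.3 FPKM in Sal_CP, against 79.5, 58.7 and 78.2 in CP, so how the counting split their reads is uncertain. The groups overlapped in the others, the BiP exchange factor Hyou1, the J-domain proteins Dnajb9, Dnajb11 and Dnajc3, and Sdf2l1, which pairs with Dnajb11. Their log2 changes lay between -0.42 (Hyou1) and -0.14 (Dnajb9). Without Sal_CP replicate 3 they were -0.21 for Dnajb11, -0.12 for Dnajc3 and 0.06 for Sdf2l1, and without Sal_CP replicate 1 -0.56, -0.51 and -0.61. Dnajb9 was at -0.07 without CP replicate 2.

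The lectin chaperones, which hold glycoproteins until they are folded, included the most abundant member. Calr, soluble calreticulin, had 92.1, 63.6 and 55.7 FPKM in Sal_CP and 113, 108 and 109 FPKM in CP. The groups did not overlap, and the log2 change was -0.67 (SE 0.32, adjusted p 0.470 in limma). Canx, the membrane-bound calnexin, had 37.0, 20.5 and 17.8 FPKM in Sal_CP and 37.1, 36.3 and 38.1 FPKM in CP. Sal_CP replicate 1 was within the CP range and the others well below it, and the log2 change was -0.62 (SE 0.33, adjusted p 0.480 in limma).

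In all 4 disulfide isomerases every Sal_CP library lay below every CP library (all genes: 10.0%), and the median change was -0.65. P4hb, protein disulfide isomerase and also a subunit of collagen prolyl hydroxylase, had 68.5, 44.1 and 36.1 FPKM in Sal_CP and 82.4, 82.0 and 75.8 FPKM in CP. The log2 change of -0.73 (SE 0.33) came with an unadjusted p of 0.0483 and an adjusted p of 0.464 in limma. Pdia6, an isomerase that works with BiP, had 28.9, 22.0 and 20.2 FPKM in Sal_CP and 35.1, 37.1 and 44.1 FPKM in CP. The highest Sal_CP library lay clearly below the lowest CP library, and the log2 change was -0.70 (SE 0.30, adjusted p 0.447 in limma).

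Pdia3, the isomerase that docks on the lectins, had 54.8, 38.97 and 34.2 FPKM in Sal_CP and 65.5, 65.9 and 62.2 FPKM in CP (log2 change -0.61, SE 0.31, adjusted p 0.470 in limma). Pdia4 had 21.7, 16.5 and 13.2 FPKM in Sal_CP and 29.6, 23.9 and 25.1 FPKM in CP (log2 change -0.61, SE 0.30, adjusted p 0.470 in limma). In both, replicate 1 was the Sal_CP library nearest to CP. Pdia3 shares exon sequence with the sperm channel gene Catsper2 on the other strand, which had 7.62, 8.995 and 7.51 FPKM in Sal_CP, against 2.77, 3.77 and 5.97 in CP. Pdia6 shares some with Atp6v1c2, which had 12.2, 7.45 and 7.32 FPKM in Sal_CP, against 16.2, 10.9 and 10.8 in CP. Whether the counting used strand is not given in the sources used here, so reads of such pairs may be mixed, as for 13 of the 39 members with an exon overlap.

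The secreted proteins of the response differed from each other. Manf, a factor released under ER stress, had 12.02, 7.71 and 8.56 FPKM in Sal_CP and 12.3, 15.98 and 14.7 FPKM in CP, with a log2 change of -0.57 (SE 0.28, adjusted p 0.470 in limma). Its groups did not overlap, though Sal_CP replicate 1 and CP replicate 1 nearly met. Manf shares exon sequence on its own strand with Rbm15b, which had 2.55, 1.45 and 1.88 FPKM in Sal_CP, against 2.62, 3.08 and 2.83 in CP. How the counting split the reads of these genes is uncertain. Creld2, also a secreted ER stress protein, was singled out after its values were seen, as the highest general change. It had 22.5, 22.0 and 21.8 FPKM in Sal_CP and 11.6, 16.8 and 23.9 FPKM in CP, with a log2 change of 0.38 (SE 0.32, adjusted p 0.569 in limma). The Sal_CP libraries lay close together and inside the CP range, and the change was 0.13 without CP replicate 1 and 0.62 without CP replicate 3.

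Of the 6 genes of ER-associated degradation, which returns misfolded protein to the cytosol, 5 were tested and 4 were below 0. Syvn1, the ubiquitin ligase HRD1, had 2.93, 2.05 and 2.07 FPKM in Sal_CP and 4.09, 3.16 and 3.14 FPKM in CP. The groups did not overlap, and the log2 change was -0.42 (SE 0.24, adjusted p 0.492 in limma). Its partner Sel1l, the mannosidase-like Edem1 and the channel component Derl1 overlapped between groups, with log2 changes of -0.46, -0.47 and -0.25. Without Sal_CP replicate 1 these were -0.90, -0.97 and -0.44, whereas Edem1 was at -0.03 and Sel1l at -0.21 without Sal_CP replicate 3, and Derl1 at -0.10 and Sel1l at -0.25 without Sal_CP replicate 2. Derl3, the 1 member left untested and so named after its values were seen, lay under the filter, with 0.281, 0.338 and 0.386 FPKM in Sal_CP, against 0.254, 0.633 and 0.270 in CP. Herpud1, a membrane scaffold of the same complex, was singled out after its values were seen. It had 34.3, 27.6 and 80.8 FPKM in Sal_CP and 28.4, 53.1 and 32.9 FPKM in CP, with a log2 change of 0.21 (SE 0.42, adjusted p 0.798 in limma). Sal_CP replicate 3 set its sign: without it the change was -0.25, and without other single libraries it ran between 0.03 and 0.51.

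The translocon and the translocon-associated protein (TRAP) complex, which help nascent chains across the membrane, had 6 of 7 below 0 and a median of -0.55. Sec61b, a small subunit of the channel, had 14.7, 10.0 and 7.71 FPKM in Sal_CP and 17.6, 22.5 and 17.2 FPKM in CP. The groups did not overlap, and a log2 change of -0.80 (SE 0.31) came with an unadjusted p of 0.0231 and an adjusted p of 0.444 in limma. Sec61a1, the pore itself, was singled out after its values were seen. It had 32.8, 36.7 and 39.6 FPKM in Sal_CP and 35.6, 32.7 and 26.5 FPKM in CP, with a log2 change of 0.20 (SE 0.29, adjusted p 0.719 in limma). Within 1 channel, Sec61a1 and Sec61b thus had changes of opposite sign, a difference that was not tested, and Sec61g, the other small subunit, had -0.34 with overlapping groups (-0.53 without Sal_CP replicate 1, -0.21 without replicate 3). Without CP replicate 3 the change of Sec61a1 was 0.09.

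All 4 TRAP subunits had a change below 0. Ssr2 had 15.6, 6.87 and 8.65 FPKM in Sal_CP and 14.4, 19.0 and 19.4 FPKM in CP (log2 change -0.77, SE 0.33, adjusted p 0.447 in limma). Ssr4 had 7.72, 8.50 and 4.78 FPKM in Sal_CP and 10.5, 10.2 and 12.5 FPKM in CP (log2 change -0.62, SE 0.29, adjusted p 0.464 in limma, and -0.40 without Sal_CP replicate 3). In Ssr2 the first Sal_CP library lay above the first CP library, and in Ssr4 no Sal_CP library reached CP. Ssr3 had 15.6, 9.51 and 8.83 FPKM in Sal_CP and 18.2, 16.1 and 15.3 FPKM in CP (log2 change -0.55, SE 0.30, adjusted p 0.482 in limma). Ssr1 had 4.06, 2.96 and 2.61 FPKM in Sal_CP and 4.65, 4.54 and 4.43 FPKM in CP (log2 change -0.41, SE 0.24, adjusted p 0.502 in limma). Ssr1 did not overlap between groups, and Ssr3 overlapped only through Sal_CP replicate 1.

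The signal peptidase subunits Spcs1, Spcs2 and Spcs3, which serve the enzyme that cuts signal peptides, had a median change of -0.19. Their log2 changes were -0.09, -0.19 and -0.37, with overlapping groups in each, and single libraries moved them, to 0.04 for Spcs1 and -0.20 for Spcs3 without Sal_CP replicate 3 and to -0.04 for Spcs2 without CP replicate 2. Sec24d, a cargo adaptor of the COPII coat that carries protein out of the ER, had 4.96, 2.46 and 2.00 FPKM in Sal_CP and 4.45, 5.24 and 4.52 FPKM in CP. Sal_CP replicate 1 lay inside the CP range and the others well below it, with a log2 change of -0.53 (SE 0.29, adjusted p 0.481 in limma), which was -0.83 without Sal_CP replicate 1 and -0.33 without replicate 3.

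**Figure D2:**
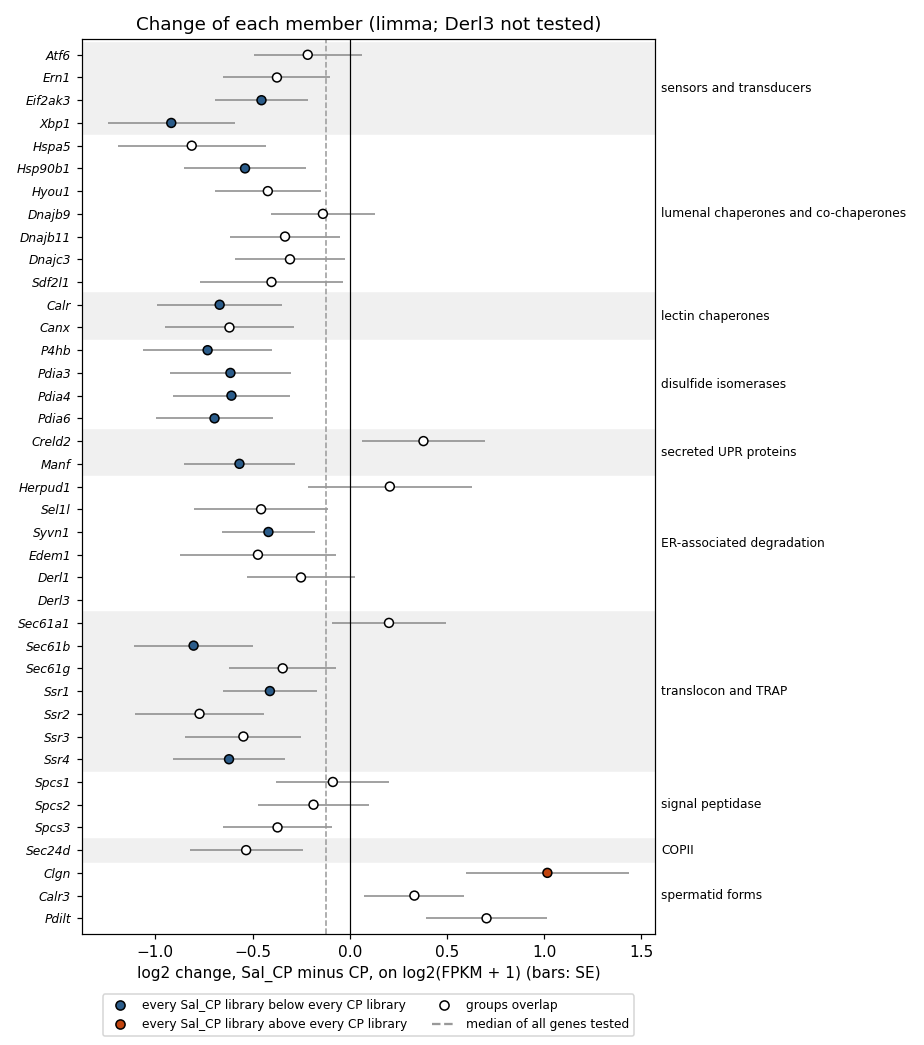
Log2 change of each tested member, Sal_CP minus CP on log2(FPKM + 1), with bars for the SE and the dashed line at the median of all genes tested (-0.12). Blue points are the 13 general members whose Sal_CP libraries all lie below CP, the orange point is Clgn, and open points are members whose groups overlap.

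The spermatid forms lay on the other side. Clgn, calmegin, had 16.3, 18.9 and 16.6 FPKM in Sal_CP and 3.33, 9.23 and 15.5 FPKM in CP. The Sal_CP libraries were close together and all above CP, whose libraries were widely spread, with replicate 3 nearly at the Sal_CP level. The log2 change of 1.02 (SE 0.42) had an unadjusted p of 0.0328 and an adjusted p of 0.446 in limma, and it was 0.49 without CP replicate 1. Pdilt had 5.46, 5.22 and 8.30 FPKM in Sal_CP and 2.14, 3.31 and 5.38 FPKM in CP. Its groups overlapped only through CP replicate 3, and the log2 change of 0.70 (SE 0.31) had an unadjusted p of 0.0426 and an adjusted p of 0.456 in limma, and was 0.46 without CP replicate 1.

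Calr3, calsperin, had 3.68, 3.78 and 5.16 FPKM in Sal_CP and 2.28, 3.68 and 3.48 FPKM in CP. Its groups met at about the same level, and the log2 change was 0.33 (SE 0.26, adjusted p 0.554 in limma), or 0.21 without Sal_CP replicate 3 and 0.17 without CP replicate 1. The summed FPKM of the 3 forms was 25.5, 27.9 and 30.1 in Sal_CP, against 7.76, 16.2 and 24.4 in CP, or 27.8 ± 2.29 and 16.1 ± 8.31 (SD, n = 3 each). On the log2(FPKM + 1) scale their mean level was 3.01, 3.07 and 3.33 in Sal_CP, against 1.83, 2.56 and 2.96 in CP. Every Sal_CP library thus lay above every CP library, by a difference in means of 0.68, which was 0.37 without CP replicate 1.

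In GRCm38 with GENCODE M21 genes, Clgn (ENSMUSG00000002190) spans 83389867 to 83428552 on chromosome 8, Calr3 (ENSMUSG00000019732) 72424176 to 72443870 on chromosome 8, and Pdilt (ENSMUSG00000030968) 119486587 to 119523489 on chromosome 7. Their general counterparts are Canx (ENSMUSG00000020368) at 50293961 to 50325673 on chromosome 11, Calr (ENSMUSG00000003814) at 84841850 to 84846934 on chromosome 8, and P4hb (ENSMUSG00000025130) at 120560298 to 120573253 on chromosome 11. All 6 are protein-coding. Pdilt shares exon sequence with Acsm5 and Gm37518 on the other strand, which lay at or under 0.0285 and 0.0465 FPKM in every library.

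**Figure D3:**
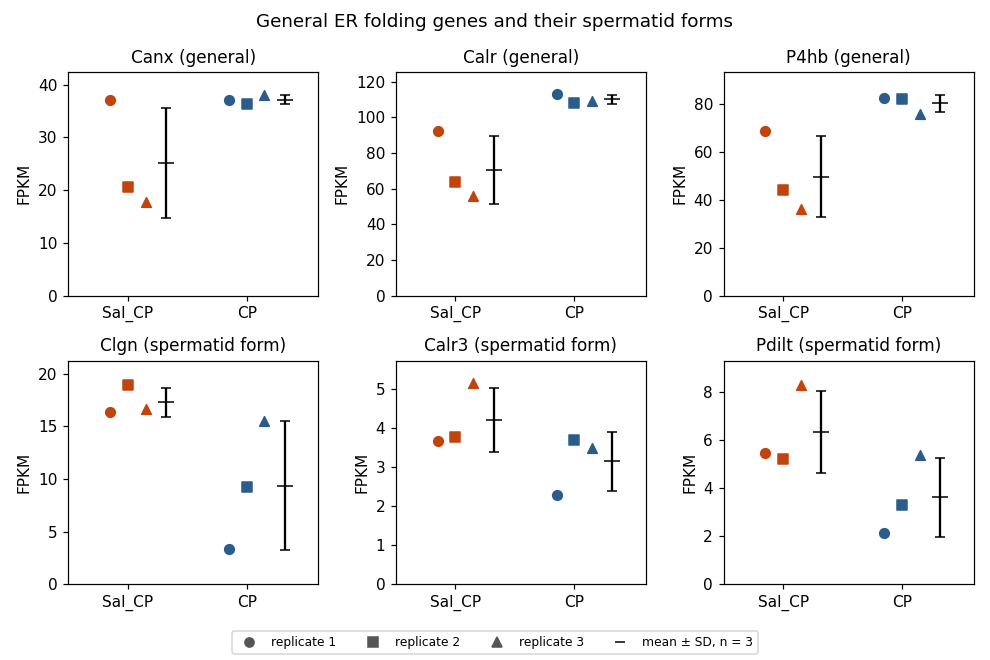
FPKM of Canx, Calr and P4hb (top) and of their spermatid forms Clgn, Calr3 and Pdilt (bottom) in each library, with Sal_CP left of CP and the mean ± SD beside the points (n = 3 each). The general genes vary little in CP and lie lower in Sal_CP replicates 2 and 3, and Clgn lies close together in Sal_CP (16.3 to 18.9 FPKM) and is widely spread in CP.

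The plain ratio of a general gene to its spermatid form within a library does not depend on a scale factor shared by all genes of that library. Canx exceeded Clgn by 2.26, 1.09 and 1.07 times in Sal_CP, against 11.1, 3.93 and 2.46 times in CP. In Sal_CP replicates 2 and 3 the spermatid form was thus almost as abundant as calnexin itself. Calr exceeded Calr3 by 25.04, 16.8 and 10.8 times in Sal_CP, against 49.5, 29.4 and 31.3 times in CP. P4hb exceeded Pdilt by 12.5, 8.45 and 4.35 times in Sal_CP, against 38.4, 24.8 and 14.1 times in CP. In all 3 pairs every Sal_CP library lay below every CP library.

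On the log2 scale with 1 FPKM added to each gene, the differences were -1.64 for Canx to Clgn, -1.002 for Calr to Calr3 and -1.43 for P4hb to Pdilt. The two-sided exact permutation p was 0.1 for each, the smallest that 3 against 3 libraries allow, and 0.1 after adjustment over the 3 pairs by Benjamini and Hochberg. This test therefore cannot reach 0.05 with these libraries, and no model-based test of the ratios was run. With any library left out, the differences were -2.05 to -1.11 for Canx to Clgn, -1.28 to -0.72 for Calr to Calr3 and -1.77 to -1.05 for P4hb to Pdilt. With 1 FPKM added, the differences do depend on the scaling. In the same order they were -1.62, -0.96 and -1.40 after median of ratios scaling, and -1.69, -1.23 and -1.60 after quantile normalization.

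Marker lists of other cell types were measured in the same libraries. The mean log2(FPKM + 1) of 16 epithelial markers was 3.77, 3.41 and 3.06 in Sal_CP, against 4.32, 4.09 and 4.44 in CP, with 15 of 16 below 0 and no overlap between groups. That of 17 epididymal markers was 3.19, 2.94 and 2.97 in Sal_CP, against 3.49, 3.76 and 3.68 in CP, again without overlap, with Lcn9 and Bsph1 at 0 in every library. Its members differed among themselves, with 6 of 9 tested below 0 and 3 above, and 3 called lower in limma, among them Akr1b7 (log2 change -3.24, adjusted p 0.0152). The 3 Sal_CP libraries kept the order of the general ER genes in the epithelial and leukocyte scores, with replicate 1 highest and replicate 3 lowest. Over all genes tested Sal_CP replicate 1 was also the highest, at 2.73, against 2.37 and 2.39 in Sal_CP replicates 2 and 3. Leukocyte markers, with 15 genes, had 3.94, 2.83 and 2.44 in Sal_CP, against 3.46, 3.03 and 2.67 in CP, and there Sal_CP replicate 1 was the highest of all libraries. Leydig markers had low means, at 0.49, 0.38 and 0.52 in Sal_CP and 0.72, 0.76 and 0.71 in CP over 10 genes, without overlap. Of them 6 lay under 1 FPKM in every library, with Hsd17b3 at 0 in each. Only 3 were tested, Star, Insl3 and Fads1, each lower without overlap, and Fads1 lay at 3.08 to 11.6 FPKM. Sertoli markers overlapped between groups, with Fshr at 0 in every library. The part of such cells in the levels of the general ER genes was not tested.

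Beside the spermatid forms, the mean log2(FPKM + 1) of 17 late spermatid markers was 9.72, 9.84 and 10.6 in Sal_CP, against 9.56, 10.1 and 9.16 in CP. All 17 had a change above 0, but the groups overlapped, and CP replicate 2 lay above Sal_CP replicates 1 and 2. The 17 spermatocyte markers had 1.93, 1.97 and 2.06 in Sal_CP, against 1.57, 1.75 and 1.74 in CP, without overlap. Of them 8 were tested, all above 0, and limma called 0. The untested ones averaged under 1 FPKM and went both ways. Hormad2, for example, had means of 0.169 FPKM in Sal_CP and 0.455 in CP, and Piwil1 0.741 and 0.379. CP replicate 1, the lowest library in Clgn, Calr3 and Pdilt, was also the lowest in the spermatocyte score but not in the late spermatid score. The part of germ cell composition in the levels of the spermatid forms was not tested.

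**Figure D4:**
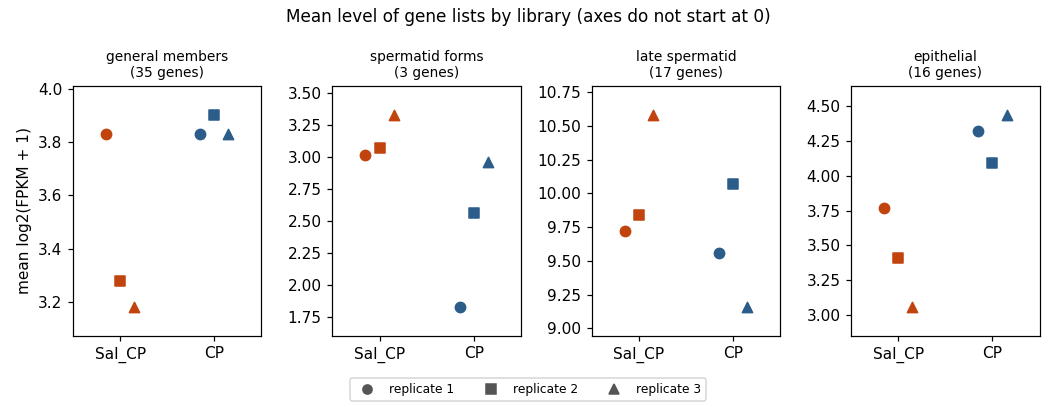
Mean log2(FPKM + 1) of the 35 tested general members, the 3 spermatid forms, 17 late spermatid and 16 epithelial markers in each library, with Sal_CP left of CP and axes that do not start at 0. Sal_CP replicate 1 reaches the CP level in the general members (3.83) but not in the epithelial markers (3.77), and the late spermatid markers overlap between groups.

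Other genes of the secretory pathway, from lists written for this module with results of these data known, were also mostly lower without passing the test. Of 136 listed genes 130 were in the table and 118 were tested. limma called 0, 93 were below 0 (all genes: 60.5%), and the median was -0.30. At an unadjusted p below 0.05, 13 were lower (all genes: 6.77%) and 1 was higher (all genes: 3.96%). Among genes whose groups did not overlap, 29 were lower (all genes: 10.0%) and 4 higher (all genes: 7.21%) in Sal_CP. The pathway of protein processing in the ER, as the deposited table annotates it and counted after seeing the data, stood nearer to all genes. Of its 122 tested genes that are not members, 82 (67.2%) were below 0 with a median of -0.23, and the groups did not overlap in 15 lower and 12 higher. By role, the other folding and redox genes had 23 of 27 below 0 (median -0.54) and the oligosaccharyltransferase, which attaches sugars, 11 of 12 (median -0.42). The COPII coat and cargo receptors had 21 of 23 below 0 (median -0.38) and other transducers of the response 7 of 8 (median -0.41). Other targeting and translocation genes had 19 of 25 below 0 (median -0.19). Other degradation genes stood nearest to all genes, with 12 of 23 below 0 and a median of -0.06.

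Of these genes, the smallest p among those lower in Sal_CP belonged to Serpinh1, the collagen chaperone HSP47. It had 4.75, 5.09 and 5.07 FPKM in Sal_CP and 20.5, 14.3 and 12.5 FPKM in CP. Here all Sal_CP libraries agreed, replicate 1 included, and lay far below CP, with a log2 change of -1.46 (SE 0.28, adjusted p 0.103 in limma). The smallest p among those higher belonged to Ero1lb, an oxidase that recharges disulfide isomerases, which had 5.02, 3.79 and 3.32 FPKM in Sal_CP and 1.65, 2.39 and 2.88 FPKM in CP. The groups did not overlap, and the log2 change was 0.61 (SE 0.26, adjusted p 0.446 in limma).

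**Figure D5:**
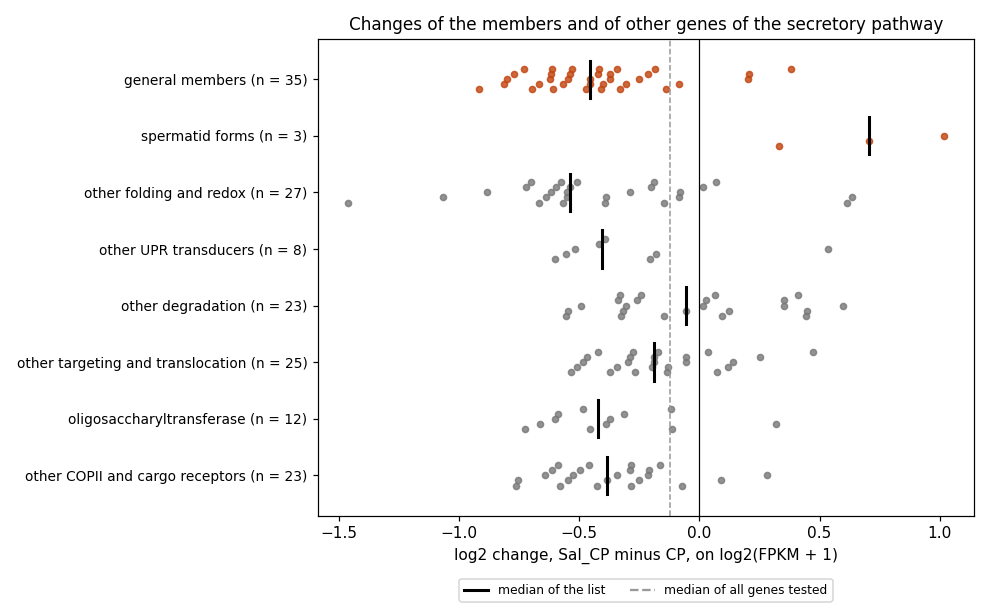
Log2 changes, Sal_CP minus CP on log2(FPKM + 1), of the general members, the spermatid forms and 6 lists of other secretory pathway genes, 1 point per tested gene. Black bars are list medians (-0.45 for the general members, 0.70 for the spermatid forms, -0.06 for other degradation genes), and the dashed line is the median of all genes tested (-0.12).

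The changes of members with and without an ERSE can be set side by side. The 8 tested members with an ERSE in the window had 7 below 0, a median of -0.58 and a range of -0.81 (Hspa5) to 0.38 (Creld2). The 22 tested members whose window held none had 19 below 0 and a median of -0.43. Those above 0 were Herpud1 and the spermatid forms Calr3 and Pdilt, so this group mixes general genes with spermatid forms. Herpud1, with an ERSE-II, had 0.21 and Dnajb11, the other, -0.33, while Sec24d, with the UPRE, had -0.53. No test of these differences was made.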

How the data were processed

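Per the labels, total RNA libraries were sequenced as paired reads of 150 bases, with the second strand degraded, on build GRCm38 per the submitters' processing notes. No aligner or quantifier is named: not given in the sources used here. Deposited values are FPKM per gene and library, computed by the authors. The deposited ratio (fold) is the ratio of the group means of FPKM, and the log2 column is that ratio on a log scale. The authors' p-value is from an unnamed test, and their q-value was within 0.000834 of a Benjamini-Hochberg adjustment over the 32375 genes above 0.

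The 12241 genes averaging 1 FPKM or more were compared on log2(FPKM + 1) with limma 3.58.1 in R 4.3.3 (trend on, 4 residual and 7.76 prior degrees of freedom), with Benjamini-Hochberg adjustment over all of them and a threshold of 0.05. The script was tested on simulated data. Ratios were compared by exact permutation over the 20 arrangements of 6 libraries. FPKM are relative to the library total, so a large mitochondrial share lowers all other values. Depth was estimated from the steps between low FPKM of genes with 1 transcript. A level of 1 FPKM over 1 kb stood for about 22.0, 16.5 and 16.5 fragments in Sal_CP and 16.9, 17.6 and 18.3 in CP. Only 46.4 to 49.4% of those values lay within 0.05 of a multiple of 0.5 fragment, where an even spread gives 20%, so no count test was run and no interval given.

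The members and lists were chosen with earlier results of these data known. Named with values are Hspa5, Xbp1, the sensors, the spermatid forms and their counterparts, the 12 other members of smallest p, and the pathway gene of smallest p per direction; others are said to be chosen after their values were seen. No 2 libraries held identical values. The alternatives varied the pseudocount, the filter, the scaling and limma's options, left out single libraries, and used the replicate number as a block. Promoters came from RefSeq GRCm38.p6 and gene coordinates from GENCODE M21. Of the 31 members with a promoter window, 28 had one that ended in an annotated transcript of their gene.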

Additional observations from a re-analysis of the deposited data

How the results depend on the processing

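limma called 0 members at all 17 settings, with a smallest member adjusted p of 0.0661 (5 members, Xbp1 among them, without Sal_CP replicate 1), and 34 of 38 tested members kept the sign of their change. Over all genes, 9 were called with all libraries, 0 with no filter on low values, 0 after median of ratios scaling, 5 after quantile normalization, 14 with mitochondrially encoded genes removed, and 0 to 13 with 1 library left out, of which 0 without Sal_CP replicate 1 and 1 without Sal_CP replicate 2. With the replicate block 280 genes were called and 0 members (smallest adjusted p 0.104). Same-numbered libraries deviated with r of 0.196, -0.115 and -0.0644, and other pairs with r from -0.207 to 0.296. With 3 libraries per group these values cannot settle whether the numbers pair the libraries. Dnajb9 and Spcs1 turned to 0.050 and 0.10 after median of ratios scaling. With 1 library left out, Sdf2l1 ran from -0.66 to 0.058, Herpud1 from -0.25 to 0.51 and Spcs1 from -0.18 to 0.037, and each turned without Sal_CP replicate 3. The causes were not tested. The median of the general members ran from -0.67 (mitochondrially encoded genes removed) to -0.31 (without Sal_CP replicate 3). These scalings also moved the median of all genes, to -0.27 with those genes removed and 0.02 after median of ratios scaling, against -0.12. Relative to it, the general members stood at -0.33, and at -0.40 and -0.35 after these scalings. After median of ratios scaling 30 of 35 general members were below 0 and the difference of their mean level was -0.26, against -0.43. The score of the spermatid forms differed by 0.37 (without CP replicate 1) to 0.94. Depth limits the lowest genes most, such as Derl3, under 1 FPKM in every library.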
